A study of Saccharomyces cerevisiae with 4 samples.

Results

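The 4 auxotrophic marker genes of the yeast strain BY4741 were URA3 (YEL021W), LEU2 (YCL018W), HIS3 (YOR202W) and MET17 (YLR303W), taken by systematic name from the 7126 rows of the deposited table. BY4741 is a haploid laboratory strain of Saccharomyces cerevisiae, mating type a, in which these loci are disrupted. Each library came from poly(A) RNA of BY4741 cells in mid-log growth on glucose, in synthetic complete medium lacking leucine and uracil. All cells carried a CRISPR interference guide, with which a catalytically dead Cas9 blocks transcription at the guide's target. The guide was scrambled in the libraries called scrambled A and scrambled B, and in those called +116 A and +116 B it was the +116 guide against the GAL10 noncoding RNA. The labels do not say where the URA3 and LEU2 genes of these strains lie, on a plasmid or in a chromosome, nor whether A and B were separate transformants. The p-values therefore rest only on the spread between these libraries, which may be technical. In limma, the main test, the variance of each gene is also drawn toward that of all tested genes.

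Auxotrophic markers are genes of biosynthetic enzymes. A cell that lacks one grows only when the product is supplied, and a working copy carried on introduced DNA can be selected by leaving that product out of the medium. URA3 encodes orotidine-5'-phosphate decarboxylase, the last enzyme of uridine monophosphate synthesis, and LEU2 encodes beta-isopropylmalate dehydrogenase of leucine synthesis. HIS3 encodes imidazoleglycerol-phosphate dehydratase of histidine synthesis. MET17, also known as MET15, encodes O-acetylhomoserine sulfhydrylase, which joins sulfide to a carbon backbone in methionine synthesis. In BY4741 the alleles ura3Δ0, leu2Δ0 and met15Δ0 are known to lack the reading frame, while his3Δ1 lacks only an internal stretch of it, so HIS3 reads can come from the chromosomal allele.

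The 250 bases before the start codon of 3 of the genes are shown because each holds the motif of a known activator of its pathway, and URA3 is the member that was called different between the guides. They were read from the RefSeq R64 genome of strain S288C, on the plus strand, at chrV:115917-116166 for URA3, chrIII:91074-91323 for LEU2 and chrXV:721696-721945 for HIS3. The authors' build is not given in the sources used here, and introduced copies of URA3 and LEU2 can have other upstream sequence. Capitals mark the motif of Leu3, the activator of leucine synthesis genes (CCGGNNCCGG), the core of the motif of Ppr1, the activator of pyrimidine genes (CGGNNNNNNCCG), and the core motif of Gcn4, which activates genes of amino acid synthesis (TGACTC).
URA3: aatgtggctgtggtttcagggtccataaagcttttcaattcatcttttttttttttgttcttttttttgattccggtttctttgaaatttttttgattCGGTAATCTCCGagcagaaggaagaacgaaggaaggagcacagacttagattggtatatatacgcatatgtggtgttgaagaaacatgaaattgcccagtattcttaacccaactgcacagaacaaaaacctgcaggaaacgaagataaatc
LEU2: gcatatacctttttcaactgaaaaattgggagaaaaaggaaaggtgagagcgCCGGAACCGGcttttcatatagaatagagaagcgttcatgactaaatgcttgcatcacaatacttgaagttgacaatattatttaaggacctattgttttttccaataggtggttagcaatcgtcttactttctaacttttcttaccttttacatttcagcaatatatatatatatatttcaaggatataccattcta
HIS3: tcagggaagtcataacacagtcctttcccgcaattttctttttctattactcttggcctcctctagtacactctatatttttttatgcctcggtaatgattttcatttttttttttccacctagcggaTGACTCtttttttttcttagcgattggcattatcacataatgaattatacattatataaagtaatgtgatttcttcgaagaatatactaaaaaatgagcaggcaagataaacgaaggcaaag

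Counted back from the start codon, the Ppr1 core lies at −152 to −141 in URA3, the Leu3 motif at −198 to −189 in LEU2 and the Gcn4 motif at −122 to −117 in HIS3. On either strand, the Leu3 motif occurred in 7 of 6020 such windows of R64 protein-coding genes (0.116%), the Ppr1 core in 63 (1.05%) and the Gcn4 motif in 375 (6.23%). The motif of Cbf1, a regulator of sulfur genes (CACGTG), was found in 2.72% of windows, and the longer Ppr1 motif that contains the core (TTCGGNNNNNNCCGAA) in 0.0166%. Neither string is in the 3 windows shown or in that of MET17. A match is a run of letters, not a measured binding site, and the lack of one says only that these letters are not in the window.

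The libraries held 34215480 to 40628383 gene-assigned reads. Mating type a was checked with 6 genes expressed in a cells (MFA1, MFA2, STE2, STE6, BAR1 and ASG7), which together had 79935 to 82490 normalized reads per library. The 4 genes of the opposite mating type (MF(ALPHA)1, MF(ALPHA)2, STE3 and SAG1) had 1719 to 1988, of which SAG1 made up 1292 to 1570. LYS2, a lysine synthesis gene that is intact in BY4741, had 9966 to 13554 normalized reads. A normalized read is a read count divided by the authors' size factor for its library.

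LEU2 and URA3 were among the most abundant transcripts, HIS3 was at a moderate level and MET17 had no reads. LEU2 had 196882 and 233299 normalized reads in scrambled A and B and 217654 and 194668 in +116 A and B. It ranked 10 to 12 among the 7126 rows. LEU2 took 0.527% to 0.622% of all gene-assigned reads (95% Wilson interval 0.525% to 0.529% in +116 B, the lowest). Such intervals cover counting error only.

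URA3 had 94116 and 64823 normalized reads in scrambled A and B and 47034 and 52553 in +116 A and B. Its value in scrambled A was the highest by a wide margin, and both scrambled libraries lay above both +116 libraries. URA3 took 0.256% of reads in scrambled A (95% Wilson interval 0.255% to 0.258%), 0.173% in scrambled B, 0.127% in +116 A and 0.142% in +116 B. Its rank went from 54 in scrambled A to 134 in +116 A.

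HIS3 had 3724 and 3891 normalized reads in scrambled A and B and 4211 and 3381 in +116 A and B. The +116 libraries held its highest and its lowest value, so the groups overlapped. The share of reads was 0.00915% to 0.0114%. The table gives 1 value per gene, so the position of these reads relative to the stretch that his3Δ1 lacks was not analysed here.

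MET17 was at 0 reads in each of the 4 libraries. A count of 0 allows up to 3 reads per library, or 2.71 to 3.29 normalized reads and a share of at most 8.77e-06% in the shallowest library. YLR302C, an annotated reading frame which shares 12 bases with the 5' end of MET17 in R64 and lies on the opposite strand, was also at 0 in all 4 libraries. Of 5988 nuclear protein-coding genes of the reference with a row, 66 (1.10%) were at 0 throughout. ACO1, the aconitase gene that is the next protein-coding gene on the other side, had 14146 to 15431 normalized reads.

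Per kb of gene length, the order was LEU2, URA3, HIS3 and MET17 in every library. LEU2 had 177779 to 213058 normalized reads per kb and URA3 58501 to 117060, so their ranges did not overlap. Among the 6162 rows with a known length, LEU2 ranked 19 to 25 per kb, URA3 45 to 106 and HIS3 830 to 1008. HIS3 had 5100 to 6351 per kb, which divides by the full 663 bp and understates the level if the allele is shorter. LEU2 was 31.3 to 36.3 times as high as HIS3 on this scale. The ratio of LEU2 to URA3 varied more, at 1.54 and 2.64 in scrambled A and B and 3.40 and 2.72 in +116 A and B.

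**Figure D1:**
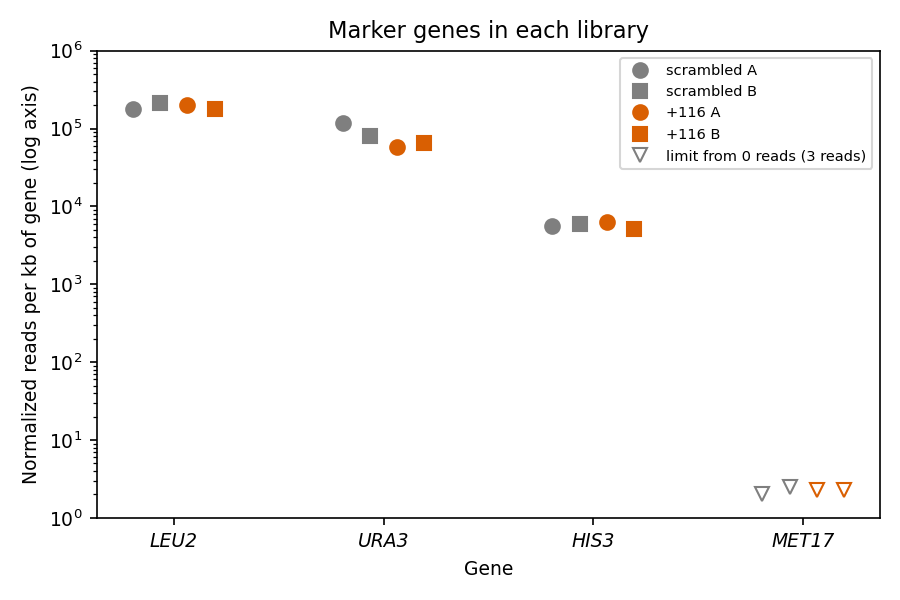
Normalized reads per kb of gene (log axis) of the 4 marker genes in each library, grey for the scrambled guide and orange for +116, circles for A and squares for B; open triangles mark the limit of 3 reads where the count was 0. LEU2 lies at 177779 to 213058, URA3 at 58501 to 117060 and HIS3 at 5100 to 6351, and MET17 has no reads in any library.

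URA3 and LEU2 stood above every other listed gene of their own pathways, and HIS3 did not. LEU2 averaged 192352 normalized reads per kb over the 4 libraries, 4.71 times BAT1 (40805), a branched-chain aminotransferase gene with the next level of 9 other genes of leucine synthesis, regulation and uptake. LEU1, which encodes the enzyme one step before Leu2, averaged 32219 per kb, and LEU4, of the first committed step, 23518. LEU2 was 16.2 times the median of the 9.

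URA3 averaged 80388 normalized reads per kb, 4.07 times URA1 (19731), the dihydroorotate dehydrogenase gene, and 18.1 times the median of 12 other pyrimidine genes. URA5, the main orotate phosphoribosyltransferase gene of the step before Ura3, averaged 17796 per kb. PPR1, the regulator, was lowest at 474.2. The lowest URA3 library, +116 A at 58501 per kb, was still above the highest value of URA1 in any library, 21607.

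HIS3 averaged 5734 normalized reads per kb and took place 5 among 8 genes of histidine synthesis and uptake. HIS1 (29631 per kb), HIS4 (17560), HIS5 (10768) and HIS7 (6392) were above it, and the permease gene HIP1 (3864), HIS2 (2940) and HIS6 (1889) were below. HIS3 was 0.897 times the median of the other 7. Over the 4 libraries HIS3 ran from 5100 to 6351 per kb and HIS7 from 5980 to 7306, so these neighbours in the order overlapped.

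The 31 other genes of sulfate assimilation, methionine and cysteine synthesis and uptake all had reads. HOM2, of homoserine synthesis, was highest at 41765 normalized reads per kb, and SUL1, a sulfate permease gene, was lowest at 47.8. MET6, the methionine synthase gene, averaged 16641 and CYS3, which acts in the synthesis of cysteine from homocysteine, 15237. HSU1 (YLL058W), a gene related in sequence to sulfhydrylases of this pathway, averaged 628.9 per kb, with 1075 to 1104 normalized reads in every library.

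**Figure D2:**
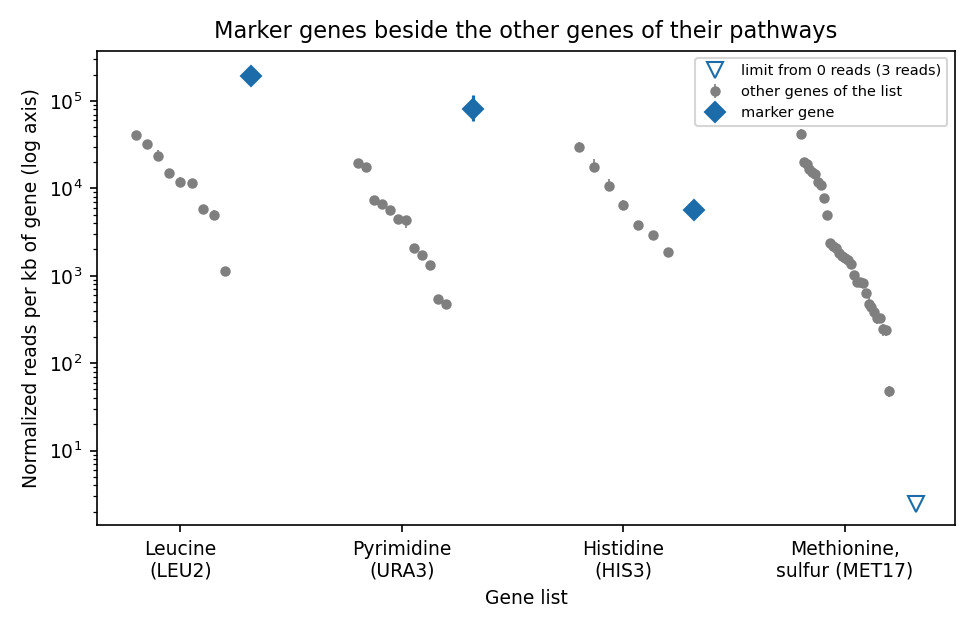
Mean normalized reads per kb over the 4 libraries (log axis) of the marker genes (blue diamonds) and of the other genes of their pathway lists (grey), with bars from the lowest to the highest library; the open triangle marks the limit of 3 reads for MET17. LEU2 and URA3 lie 4.71 and 4.07 times above the next gene of their lists, and HIS3 is at place 5 of 8.

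Between the guides, URA3 was called lower with +116, whereas neither LEU2 nor HIS3 passed the threshold. Its scrambled mean was 79470 ± 20713 normalized reads and its +116 mean 49794 ± 3902 (SD, n = 2 each), 1.57-fold lower. The log2 fold was −0.65 with a standard error (SE) of 0.121 and a 95% interval of −0.91 to −0.39 (limma adjusted p = 0.0413). In this fit the variance over all genes weighs as 11.5 degrees of freedom. The SE, interval and p-value therefore do not give the spread of URA3 alone. Of 6277 tested genes limma called 0.844%, with 0.335% lower and 0.510% higher, and URA3 had place 15 by p and place 105 by the size of its log2 fold. edgeR on recovered reads also called URA3 (log2 fold −0.67, adjusted p = 0.00843), where 2.72% of genes were called. DESeq2 did not (log2 fold −0.67, adjusted p = 0.119), with 2.70% of genes called. Of the 15 alternatives run, 9 called URA3, and its highest adjusted p was 0.353, in limma without a variance trend.

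For LEU2 the scrambled mean was 215090 ± 25750.5 normalized reads and the +116 mean 206161 ± 16253 (SD, n = 2 each). Its log2 fold was −0.06 with a 95% interval of −0.25 to 0.13 (limma adjusted p = 0.737). An absence of difference is not shown, as log2 folds within that interval remain compatible with the fit. The interval also draws on the variance of all genes. For HIS3 the means were 3808 ± 117.6 and 3796 ± 586.4 (SD, n = 2 each), and the log2 fold was −0.01 (95% interval −0.18 to 0.16, limma adjusted p = 0.943). MET17, with no reads, was not tested. The values of the groups did not overlap for 1 of the 3 tested members, against 53.5% of all tested genes.

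The scrambled libraries differed from each other in URA3 and, less, in LEU2. LEU2 was 0.844 times as high in scrambled A as in B, with an exact 95% counting interval of 0.839 to 0.849. URA3 was 1.45 times as high in scrambled A as in B, with an exact 95% counting interval of 1.44 to 1.47. Among the 4269 tested genes with a mean of at least 1000 normalized reads, the LEU2 difference ranked 56 and that of URA3 ranked 4. Leaving out scrambled A gave a log2 fold between the guides of −0.38 (limma adjusted p = 0.148), and leaving out scrambled B gave −0.92 (limma adjusted p = 0.107). In each of these fits limma called 0 genes in the whole table, with 1341 and 448 genes at an unadjusted p under 0.05. The log2 fold of URA3 was −0.57 when +116 A was left out and −0.73 when +116 B was. In these fits a +116 library stood alone, so the variance came from the scrambled pair and from all genes. After a correction for gene length the log2 fold of URA3 was −0.60 (limma adjusted p = 0.214).

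The levels of URA3 and LEU2 ran in opposite directions within each pair of libraries. In scrambled A, URA3 had its highest value and LEU2 was below its value in scrambled B, by 0.24 on the log2 scale, and in +116 A URA3 was lower and LEU2 higher than in +116 B. The ratio of URA3 to LEU2 reads, which does not depend on library scaling, was 0.478 and 0.278 in scrambled A and B and 0.216 and 0.270 in +116 A and B. It was lower in both +116 libraries, by 0.59 on the log2 scale, but +116 B lay close to scrambled B. The exact two-sided permutation test gave p = 0.333, the smallest p that 2 libraries against 2 allow.

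The genes beside the chromosomal loci that could be tested were not called. GEA2, upstream of URA3, had 3466 to 3582 normalized reads and a log2 fold of 0.02. TIM9, the next gene downstream, which encodes a protein import chaperone of mitochondria, had 1152 to 1386 and a log2 fold of −0.17 (limma adjusted p = 0.176). NFS1 beside LEU2 had a log2 fold of 0.06. DED1, the RNA helicase gene after HIS3, had 7481 to 8935 normalized reads and a log2 fold of 0.17 (limma adjusted p = 0.118). Of the 24 genes within 3 places of a member, those with a value in the test had limma adjusted p-values of 0.118 to 0.973. YCL020W near LEU2 and YLR302C were at 0 in every library and were not tested. The tRNA genes SUP53, YNCL0037W and YNCL0038W had no row. The genes next to MET17, YLR302C and YNCL0038W, were thus not tested.

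None of 12 other pyrimidine genes was called by limma in either direction, and their median log2 fold was −0.02, beside 0.0013 over all tested genes. At an unadjusted p under 0.05, 2 were higher and 4 lower, 50% of the list, beside 21.8% of all tested genes (11.5% higher and 10.3% lower). edgeR and DESeq2 each called 1, FUR4, higher, beside 1.73% and 1.47% of all tested genes called higher. By systematic name, FUR4 (YBR021W) follows GAL10 (YBR019C) and GAL1 (YBR020W), the locus of the +116 guide's target. GAL10 had a log2 fold of 0.80 and GAL1 of −1.81. Whether the place of FUR4 bears on its value was not tested. FUR4, the uracil permease gene, had 3080 and 2877 normalized reads in scrambled A and B and 3464 and 3633 in +116 A and B. Its log2 fold was 0.25 (limma adjusted p = 0.05002), and limma called it with upper-quartile scaling (adjusted p = 0.0359) and among genes with a mean of at least 50 (adjusted p = 0.0414). URA2, which encodes the multifunctional enzyme of the first steps, had 23637 and 30112 normalized reads in scrambled A and B and 32395 and 30401 in +116 A and B. Its log2 fold was 0.23 (limma adjusted p = 0.148), which became 0.060 without scrambled A, 0.41 without scrambled B and 0.080 after the length correction. FUR1, of uracil salvage, was at −0.16 (limma adjusted p = 0.129).

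In scrambled A, where URA3 was highest, several genes of pyrimidine synthesis had their lowest values. URA1 had 16348 normalized reads in scrambled A and 18207 to 20419 in the other 3 libraries. URA2 had 23637 against 30112 to 32395, and URA8, a CTP synthase gene, had 3184 against 3702 to 3945. URA4, the dihydroorotase gene, and URA10, a minor isozyme of URA5, were also lowest there, by smaller margins. In all, 5 of the 12 genes were lowest in scrambled A, against 16.8% of all tested genes, and 1 was highest there, against 15.9%. Just as many, 5 of the 12, were lowest in +116 A, where URA3 was lowest too, against 22.8% of all tested genes, and 7 were highest in scrambled B, against 32.5%. Library A lay below B for 9 of the 12 in the scrambled pair and for 10 in the +116 pair. The median was −0.08 on the log2 scale in each. A was above B for 25.0% and 16.7% of the list, beside 49.1% and 50.1% of all tested genes. The medians over all tested genes were −0.0024 and 0.00013. URA3 itself was higher in A in the scrambled pair and lower in A in the +116 pair. These libraries were singled out after the values were seen, and whether the levels of these genes and of URA3 are linked was not tested.

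**Figure D3:**
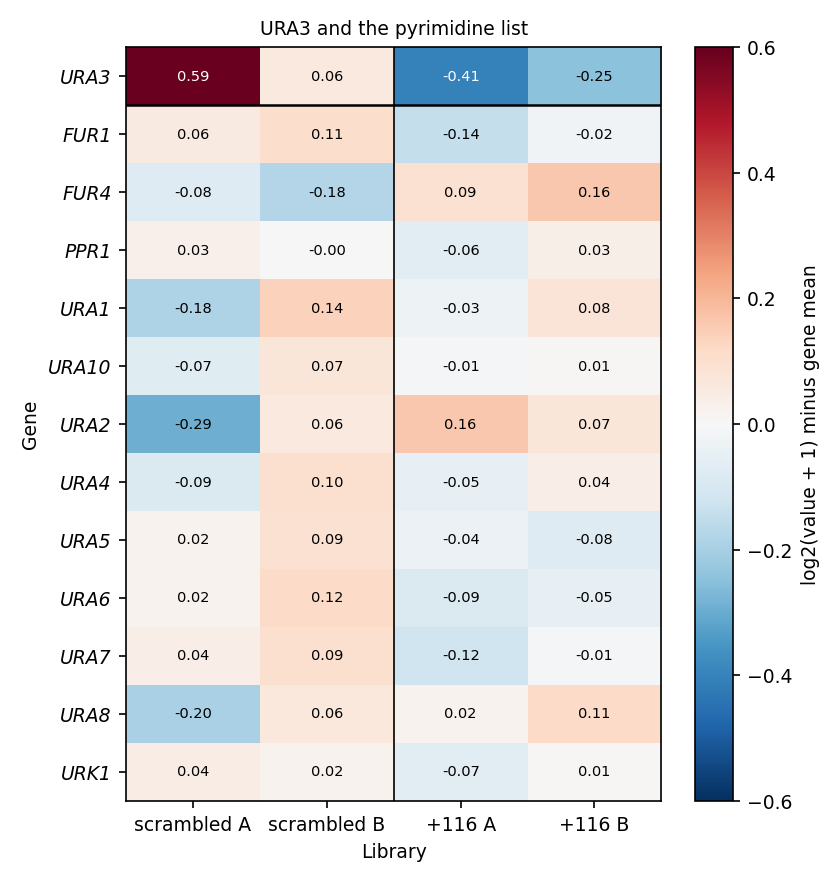
Deviation of log2(value + 1) from each gene's mean over the 4 libraries, for URA3 (top) and the 12 other pyrimidine genes, with red above and blue below the mean. URA3 is 0.59 above its mean in scrambled A, where URA2 is 0.29, URA8 0.20 and URA1 0.18 below theirs. URA4, FUR4 and URA10 are 0.07 to 0.09 below theirs there, and FUR1, URK1, URA7, PPR1, URA5 and URA6 are 0.02 to 0.06 above.

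None of 9 other leucine genes and none of 7 other histidine genes was called by limma. At an unadjusted p under 0.05 in limma, 3 leucine genes (33.3%) and 2 histidine genes (28.6%) were higher and 0 lower. Over all tested genes the share was 21.8% in either direction, 11.5% higher and 10.3% lower. edgeR and DESeq2 each called LEU4 higher and 0 histidine genes, beside 1.73% and 1.47% of all tested genes called higher. The leucine list had a median log2 fold of 0.09, with 8 members above 0, and was led by LEU4 at 0.28 (limma adjusted p = 0.0559, and 0.046 among genes with a mean of at least 50). Without +116 A LEU4 was at 0.18. The uptake genes BAP2 and BAP3 followed at 0.17 and 0.16. The histidine list had a median of 0.09, with 6 members above 0. HIS4, of several steps of the pathway, led with 0.25 (limma adjusted p = 0.143), before HIS5 at 0.18 and HIS7 at 0.15. Without +116 A these were 0.064, −0.0036 and 0.032, and without +116 B they were 0.44, 0.36 and 0.27, when limma called all of them. LEU2 and HIS3, at −0.06 and −0.01, lay below most other genes of their lists.

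HIS3 and most other histidine genes were higher in +116 A than in +116 B. HIS3 was 1.25 times as high in +116 A as in +116 B, with an exact 95% counting interval of 1.19 to 1.30. This difference ranked 32 among the 4269 tested genes with a mean of at least 1000 normalized reads. All 7 other histidine genes were higher in +116 A than in +116 B, against 50.1% of tested genes, by a median of 0.24 on the log2 scale, although HIP1 differed by only 0.0025 and HIS6 by 0.09. The 7 other marker loci that are intact in BY4741 were all higher in +116 A too, by a median of 0.18. HIS4 had 51872 normalized reads in A and 40050 in B, HIS5 had 14945 and 11625, and HIS1, of the first step, had 30634 and 24086. In the scrambled pair 3 of the 7 other histidine genes were higher in A, against 49.1% of tested genes. The median of the 7 was −0.03.

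Genes with the Gcn4 motif in the 250-base window, as printed above for HIS3, also leaned to +116 A. Of 368 such genes tested, 245 (66.6%) were higher in +116 A than in +116 B, against 50.1% of all tested genes. The median difference was 0.05 on the log2 scale, beside 0.00013 over all tested genes. In the scrambled pair 46.5% were higher in A, against 49.1% of all tested genes. Between the guides, 5 of the 368 were called higher and 0 lower by limma, 1.36% called higher beside 0.510% of all tested genes, and the median log2 fold was 0.04. At an unadjusted p under 0.05 in limma, 71 were higher (19.3%) and 21 lower (5.71%), beside 11.5% and 10.3% of all tested genes. In either direction that was 25.0% of the list beside 21.8%. edgeR called 8 of 368 higher and 0 lower, 2.17% called higher beside 1.73% of all tested genes. DESeq2, which tested 375, called 10 higher and 2 lower, 2.67% called higher beside 1.47% of all tested genes. GCN4 itself had 52397 and 47978 normalized reads in +116 A and B, and 50006 and 54524 in scrambled A and B. The count of GCN4 reads need not follow the level of its protein, which is known to be set largely by translation. Library +116 A was singled out after the values were seen. Whether the levels of HIS3, the other histidine genes and the genes with this motif are linked to Gcn4 was not tested.

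**Figure D4:**
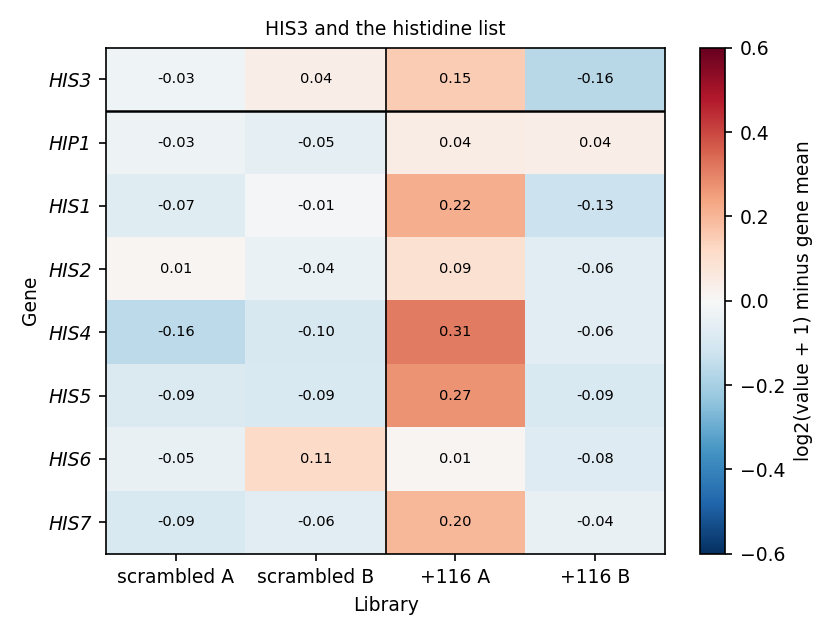
Deviation of log2(value + 1) from each gene's mean over the 4 libraries, for HIS3 (top) and the 7 other histidine genes, with red above and blue below the mean. HIS3 is 0.15 above its mean in +116 A and 0.16 below it in +116 B. Of the 7 other genes, 6 have their highest value in +116 A, against 23.7% of all tested genes.

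Genes with the Leu3 motif, shown above for LEU2, had no common order of libraries. LEU1 had 77345 and 69418 normalized reads in scrambled A and B and 74262 and 80543 in +116 A and B, the opposite order to LEU2 in each pair. BAT1 stayed within 48117 to 48336 normalized reads in all 4 libraries. None of the 7 genes with this motif, LEU2 included, was called by limma, edgeR or DESeq2, and 0 had an unadjusted p under 0.05.

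None of the 31 other methionine and sulfur genes was called by limma, edgeR or DESeq2, and their median log2 fold was 0.03. In limma 7 were higher (22.6%) and 2 lower (6.45%) at an unadjusted p under 0.05, beside 11.5% and 10.3% of all tested genes. In either direction that was 29.0% of the list beside 21.8%. STR3, of homocysteine synthesis, had the largest at 0.21 (limma adjusted p = 0.296), followed by MET32, a transcription factor gene, at −0.19 (limma adjusted p = 0.46) and MET10, a sulfite reductase subunit gene, at 0.19 (limma adjusted p = 0.0913). Among 7 other marker loci that are intact in BY4741, LYS2 was called higher and 0 were called lower by limma, beside 0.510% of all tested genes called higher. At an unadjusted p under 0.05 in limma, 3 were higher and 0 lower, 42.9% beside 21.8% of all tested genes (11.5% higher and 10.3% lower). edgeR and DESeq2 each called LYS2 and CAN1 higher, beside 1.73% and 1.47% of all tested genes called higher. LYS2 had 9966 and 10499 normalized reads in scrambled A and B and 13554 and 11744 in +116 A and B, a log2 fold of 0.30 (limma adjusted p = 0.0477). It no longer passed when scrambled A (limma adjusted p = 0.186), scrambled B (limma adjusted p = 0.661) or +116 A (limma adjusted p = 0.0629) was left out, nor after the length correction (log2 fold 0.18, limma adjusted p = 0.376), without a filter (limma adjusted p = 0.0964) or without a variance trend (limma adjusted p = 0.353). CAN1, an arginine permease gene, was at 0.22 (limma adjusted p = 0.0559, and 0.0499 among genes with a mean of at least 50), and TRP1, of tryptophan synthesis, had −0.08.

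The genes whose course over the 4 libraries was closest to each member were found by the root mean square difference of centred log2 values. For URA3 they were snR36, YLR122C and tN(GUU)N1, at differences of 0.04, 0.04 and 0.06, all with at most 40.7 normalized reads, where counting error is large. For LEU2 they were YNL150W, YPR059C and RSM18, a gene of the mitochondrial ribosome, at 0.0075 to 0.015. YNL150W and YPR059C had at most 9.86 and 18.6 normalized reads, so the same limit holds for them. For HIS3 they were EMA17, MPC2 and SPS1, at 0.010 to 0.016, of which SPS1 had at most 96.0 normalized reads. MPC2, of the mitochondrial pyruvate carrier, had 22048 and 23061 normalized reads in scrambled A and B and 25293 and 20562 in +116 A and B.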

How the data were processed

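Poly(A) RNA of 4 libraries, 2 per guide, was measured, prepared with a stranded kit per the labels' protocols. The submitters' processing notes name bcl2fastq 1.8.4, Trimmomatic 0.30, TopHat2 2.0.8, Picard 1.84, TopHat, Bowtie2 and DESeq2; no build, annotation, counter or strand setting is given in the sources used here. The deposited values are a signal, gene counts that the authors divided by a size factor per library: 100% of values were whole multiples of 1 step per column (tolerance 1e-06 of a read), with size factors of 0.913 to 1.11. Names and lengths came from RefSeq R64 (6048 rows by locus tag, 114 by name, 964 unmatched). Levels between genes are compared per kb.

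Genes with a mean of at least 5 entered limma 3.58.1 (R 4.3.3) with a variance trend on log2(value + 1), unpaired, two-sided, with Benjamini-Hochberg adjustment and a threshold of 0.05; log2 folds are on that scale. edgeR 4.0.16 and DESeq2 1.42.0 were run on the recovered reads as alternatives. The fits were tested on simulated data in which all genes varied alike beyond counting error and no library deviated. That test therefore cannot show how the fits treat a gene that differs within a pair, such as URA3. The members, lists, motifs and tests were chosen with earlier results of these data known. Named genes are the members, the 3 largest changes and all calls of each list, the 3 genes closest to each member and the 3 genes on either side. Other genes were named after their values were seen. Genes of the native yeast plasmid were listed but not analysed here.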

Additional observations from a re-analysis of the deposited data

How the results depend on the processing

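With 2 libraries a group, the spread of each gene itself rests on few degrees of freedom. The count of called genes, 53, was 149 with upper-quartile scaling, 7 without a filter, 137 with a mean of at least 50, 1 without a variance trend, 171 with edgeR, 185 with DESeq2, 1 after the length correction and 258 with a replicate block, and it ranged from 0 to 282 when 1 library was left out. With 1 library left out, the lone library of its group is assumed to vary like the other group. As limma also draws on the variance of all genes, a call there is no measure of the spread of that gene alone. Leaving out scrambled A or scrambled B gave the 0, with 1341 and 448 genes at an unadjusted p under 0.05 in limma. URA3 stayed lower in all 15 alternatives and was called in 9. It was not called without a filter or without a variance trend (log2 fold −0.65 in each), with DESeq2 (−0.67) or after the length correction (−0.60), and its log2 fold ranged from −0.92 to −0.38 with 1 library left out. LEU2 ranged from −0.18 to 0.064 with 1 library left out, positive without scrambled B (0.064) and without +116 B (0.02). HIS3 ranged from −0.17 to 0.15, positive without scrambled B (0.02), without +116 B (0.15) and after the length correction (0.060). Neither was called in any of the 15. With 1 library left out, HIS5 ranged from −0.0036 to 0.36 and STR3 from −0.0011 to 0.42, both lowest without +116 A. GCN4 ranged from −0.12 to 0.0050 and turned positive without scrambled B (0.0038) and without +116 B (0.0050), and GCN2 turned negative after the length correction (−0.10). Without +116 B, URA2, FUR1, LEU4, BAP2, BAP3, HIS4, HIS5, HIS7, STR3, CAN1 and ADE2 were called, and without +116 A FUR4 was. A mean of at least 50 added FUR4, LEU4 and CAN1, and upper-quartile scaling added FUR4. The ratio of URA3 to LEU2 stayed lower with +116 when 1 library was left out, by 0.20 to 0.98 on the log2 scale. The causes were not tested. The letters A and B name libraries, and the deviations of libraries with the same letter correlated at −0.0413 across genes, so no pairing was used. With the replicate block URA3 kept its log2 fold of −0.65 (limma adjusted p = 3.34e-15) and FUR4, URA2, LEU4, HIS4 and CAN1 were called. That p-value draws on the variance of all genes and does not measure the spread of URA3 alone. MET17 had no value under any setting.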
